A study of Mus musculus with 3 samples.

Results

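The cytosolic ribosome is built from ribosomal RNA and a set of ribosomal proteins, one group in the large subunit (Rpl genes) and one in the small subunit (Rps genes). Nearly every cell type transcribes these genes at high rates from compact promoters, and many of their messages begin with a run of pyrimidines, the TOP start, through which mTOR signalling controls their translation. They serve here as a set of active promoters with no special tie to the podocyte, the epithelial cell of the kidney filter. Members were protein-coding RefSeq genes of GRCm38.p6 (the mm10 assembly) with an Rpl or Rps symbol followed by a number and at most 1 letter, plus Rplp0, Rplp1, Rplp2 and Rpsa. The rule took 81 of 21887 protein-coding genes, 50 of the large and 31 of the small subunit, on 19 chromosomes.

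The data were ChIP-seq peak lists, which give places in the genome where an antibody recovered more DNA than the local background. Glomeruli, the filtering units of the kidney, came from C57BL/6 mice aged 8 weeks after magnetic-bead perfusion, and whole glomeruli hold mesangial and endothelial cells besides podocytes. The groups were 1 library with a Foxc1 antibody (Cell Signaling Technology), 1 with a Foxc2 antibody (R&D Systems) and 1 of input DNA, all of the same strain, age and tissue; no genotype or treatment is named. Input DNA was not analysed here. Foxc1 and Foxc2 are forkhead transcription factors, whose DNA-binding domain recognises a short core that reads TGTTTA or, longer, TGTTTAC. There were 5207 Foxc1 peaks and 2878 Foxc2 peaks on chromosomes 1 to 19, X and Y. With 1 library per antibody nothing measures spread between animals, no test was made, and depth is unknown because the lists carry no read counts. Peak lists measure no expression and do not establish which cells were present, so peaks near marker genes are given as a description. Of 10 podocyte markers, 10 had a Foxc1 and 9 a Foxc2 summit in the gene or within 50 kb, where 29.3% and 23.2% of all genes did. The counts were 5 and 1 of 5 mesangial, 3 and 2 of 6 endothelial, 3 and 3 of 8 tubule and 0 and 1 of 5 immune markers. Within 1 kb of a gene end, 0 podocyte markers had a Foxc1 and 5 a Foxc2 summit, against 2.93 and 7.47% of all genes. There the counts were 2 and 0 mesangial, 1 and 1 endothelial, 0 and 0 tubule and 0 and 0 immune markers. The part of gene length in these counts was not tested.

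The member promoters that the results turn on are shown first, as RefSeq gives them for GRCm38.p6, 5′ to 3′ on the gene's own strand and ending 1 base before the annotated start. Rplp0 is shown because it has the highest Foxc1 peak at the end of any member, and its capitals mark a forkhead core. It covers chr5:115559217-115559466 on the plus strand.
Rplp0: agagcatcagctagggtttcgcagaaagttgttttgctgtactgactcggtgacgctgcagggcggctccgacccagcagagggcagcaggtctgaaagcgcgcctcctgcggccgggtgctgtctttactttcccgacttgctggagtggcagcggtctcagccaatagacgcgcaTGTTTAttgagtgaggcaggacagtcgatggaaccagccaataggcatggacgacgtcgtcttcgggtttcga
Rps6, Rpl27 and Rpl15 are shown because they had a Foxc2 summit near the start and hold an ETS core, a motif frequent in these promoters; Rpl9 and Rpl13, also with a Foxc2 summit near the start, hold none. Capitals mark CCGGAA, the ETS core TTCCGG read on the opposite strand. They cover chr4:86857368-86857487 (minus strand), chr11:101442125-101442244 (plus) and chr14:18270987-18271135 (minus, up to the neighbouring gene Nkiras1). Only the core marked at Rpl15 lies inside the Foxc2 peak (18270908 to 18271199). The whole Rps6 stretch lies outside its peak (86857020 to 86857359), and the Rpl27 peak begins at 101442235, downstream of the marked cores.
Rps6: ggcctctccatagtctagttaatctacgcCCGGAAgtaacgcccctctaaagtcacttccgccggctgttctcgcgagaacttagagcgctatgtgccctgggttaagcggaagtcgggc
Rpl27: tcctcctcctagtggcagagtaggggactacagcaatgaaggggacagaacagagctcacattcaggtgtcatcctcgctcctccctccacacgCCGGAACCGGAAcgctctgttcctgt
Rpl15: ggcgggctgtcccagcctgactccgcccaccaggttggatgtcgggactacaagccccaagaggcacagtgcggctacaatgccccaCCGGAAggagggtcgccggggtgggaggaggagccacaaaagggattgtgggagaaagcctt

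Few ribosomal protein genes had a peak of either antibody at an end of the gene, and their share was close to that of protein-coding genes at large. A summit, the highest point of a peak, lay within 1 kb of either end of the annotated span in 3 of 81 members for Foxc1 (3.70%), where 2.93% of all protein-coding genes had one. For Foxc2 it did in 6 of 81 members (7.41%), against 7.47% of all. The members' shares were thus 1.26 and 0.991 times the shares of all genes, and both backgrounds lie inside the exact Clopper-Pearson 95% intervals of the members' shares (0.77 to 10.4% and 2.77 to 15.4%), which cover counting error only. No member had summits of both antibodies there (0 of 81, which allows a share of up to 3.70%), against 0.882% of all genes, a share not detectable with 81 genes. By subunit, 8 of the 50 large-subunit genes and 1 of the 31 small-subunit genes had a gene-end summit of at least 1 antibody, against 9.52% of all genes; whether the subunits differ was not tested. The Foxc1 ratio rests on 3 genes: it was 0.672 within 500 bp and 2.36 once genes that share an end region with another gene were left out. With a minus log10 q of 5 or more, 2 members were left for Foxc1 (2.64% of all genes) and 1 for Foxc2 (3.11% of all genes), which put the Foxc2 ratio at 0.397. With peaks of fold 5 or more, 1 member was left for Foxc1 (1.48% of all genes) and 0 for Foxc2 (0.726% of all genes).

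The Foxc1 peaks stood at 3 genes of the large subunit. Rplp0, which encodes the stalk protein to which the P1 and P2 proteins bind, had a peak at chromosome 5, 115559193 to 115559526, with a fold enrichment of 7.76 over the caller's local background. That fold exceeds those of 82.1% of peaks in the list, counting ties by their mean rank. Its summit lay 79 bases upstream of the annotated start, and the forkhead core printed above begins 73 bases upstream, 6 bases from the summit. Rpl27a had peaks of fold 3.57 and 3.80 (chromosome 7), with summits 611 bases upstream of the start and 959 bases downstream, inside the gene near the snoRNA gene Snora3. Rpl26, whose protein is also known to bind p53 mRNA, had a peak of fold 3.43 at 778 bases upstream (chromosome 11). The 3 peaks at Rpl27a and Rpl26 lay between percentiles 5.04 and 14.3 of the list by fold, so the peak at Rplp0 was the only one of the 4 above the list's median of 4.90. The median of the 4 was 3.68, against 5.06 for Foxc1 peaks at the ends of all protein-coding genes.

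The Foxc2 peaks stood at 6 other genes. Rps6, the small-subunit protein phosphorylated by S6 kinases, had the highest, of fold 4.81 (chromosome 4, 86857020 to 86857359), with its summit 177 bases inside the gene. Rpl9 had a peak of fold 3.78, Rpl13 one of 3.61, Rpl27 one of 3.50, Rpl15 one of 3.44 and Rpl7 one of 3.27. The peak at Rps6 alone lay above the list's median fold of 3.97, and the median of the 6 was 3.56, against 3.83 for Foxc2 peaks at the ends of all protein-coding genes. The summits at Rpl15 and Rpl27 lay 5 bases before and 29 bases after the start, and that at Rpl13 lay 353 bases after it, near the snoRNA gene Snord68. Rpl9 is arranged head to head with Lias, which encodes lipoic acid synthetase; the summit was 153 bases upstream of Rpl9 and 87 bases inside Lias. The peaks at Rpl7 and Rpl15 also lay within 1 kb of an end of Rdh10 and Nkiras1, so for these 3 members the list does not tell which gene a peak belongs to. None of the 4 Foxc1 and 6 Foxc2 peaks was overlapped by a peak of the other antibody. At the ends of all protein-coding genes 20.2% of Foxc1 and 7.70% of Foxc2 peaks were, shares that 4 and 6 peaks are too few to be set against.

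**Figure D1:**
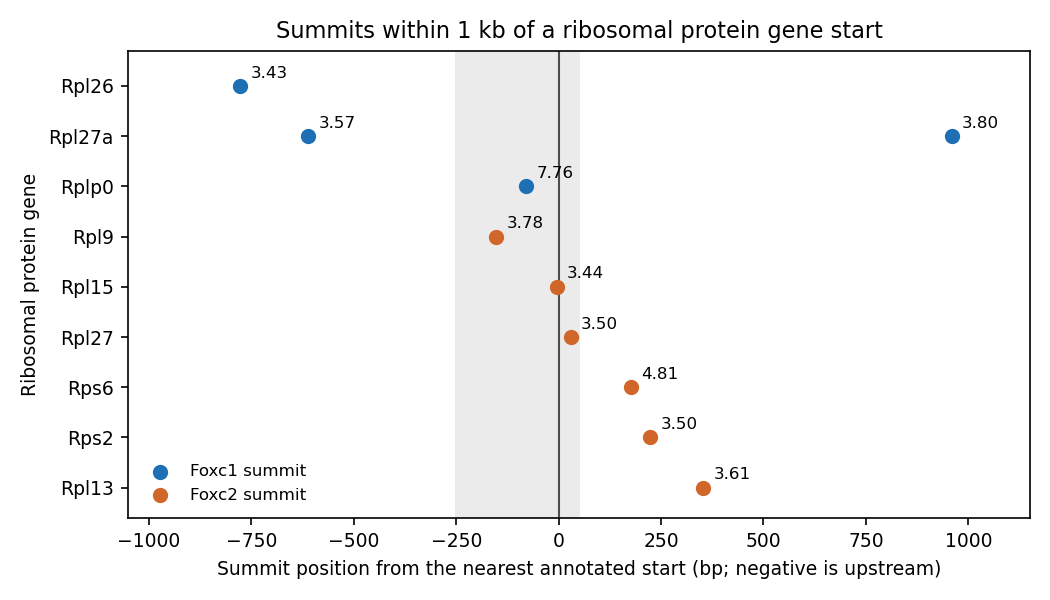
Summits within 1 kb of an annotated start of a ribosomal protein gene: horizontal axis, position from the start in bp (negative is upstream); rows, genes; colour, antibody; numbers, deposited fold enrichment; grey band, the 300-base promoter window. The Foxc2 summits lie from 153 bases before to 353 bases after a start, and Rplp0 has the Foxc1 summit of highest fold, 7.76, at 79 bases upstream. Rpl7 is not drawn because its start was not used here.

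Start sites were taken from the RefSeq promoter table, which matched 61 of the 81 members with 73 starts. In these 61 genes every gene-end summit lay at a start and none at the other end. Of the 61 members, 3 had a Foxc1 summit within 1 kb of a start (2.70% of all genes matched) and 6 a Foxc2 summit (8.36% of all). At the other end, 0 of 61 had a summit of either antibody, which allows a share of up to 4.92%, against 0.595 and 0.326% of all genes. Rps2 counted by its start and not by its span: a Foxc2 peak of fold 3.50 had its summit 223 bases after an annotated start, yet 1.64 kb from the nearest end of the span, and it was the nearest gene outside the 1 kb limit. The nearest outside for Foxc1 were Rps13 at 2.29 kb and Rps25 at 2.56 kb. Just inside lay Rpl27a and Rpl26 for Foxc1 and Rpl13 and Rpl7 for Foxc2 (0.467 kb).

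The forkhead core stood in few promoter windows, both of ribosomal protein genes and of all genes. Windows ran from 250 bases before the start through the first 50 transcribed bases, and both strands were read. TGTTTA was found in 6 of 73 member windows (8.22%) and in 11.5% of 21263 windows of all protein-coding genes. The longer TGTTTAC, which contains it, was found in 1 (1.37%) and in 3.01%. Counts of 6 and 1 are too small to tell the member shares from those of all windows. The 6 members with the core were Rplp0, Rpl22, Rpl24, Rpl37a, Rpl41 (with the longer form) and Rps23, and of these Rplp0 alone had a Foxc1 summit within 1 kb of a gene end. Those 5 other genes lie outside the naming rule and are listed for the core in their sequence. Over all genes the lists gave different shares. Of 176 windows with a Foxc1 summit inside, 44.9% held TGTTTA and 33.0% TGTTTAC, while of 701 windows with a Foxc2 summit inside, 6.56% and 3.42% did. In Foxc1 windows with the core, the summit lay a median of 8 bases from it (quartiles 2 and 24.5, 79 windows), so the 6 bases at Rplp0 fall within that range. In Foxc2 windows with the core the median was 94.5 bases (46 windows). Few windows with the core had a peak: 3.23% of the 2448 windows with TGTTTA had a Foxc1 summit inside, against 0.516% of those without it.

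The ETS core and the TOP start were more frequent in member windows than in all windows, as a description with no test. TTCCGG, the core bound by ETS factors such as GABP, stood in 46.6% of member windows, 18.7% of all and 28.5% of those with a Foxc2 summit. Among members with a gene-end peak, Rps6, Rpl27, Rpl15, Rpl27a and Rpl26 held it, and Rplp0, Rpl9 and Rpl13 did not. AAGATGGC, a YY1 core, stood in 9.59, 3.05 and 5.85% of these windows in the same order. The GC box GGGCGG, read by Sp1, was found in 57.5% of member windows, 46.2% of all and 87.7% of those with a Foxc2 summit. Median GC content was 57.7% in members, 56.3% in all windows and 70.0% in windows with a Foxc2 summit. A TOP start, here a C at the annotated start followed by 4 C or T bases, was found in 19.2% of member windows, those of Rps6 and Rpl15 included, in 2.21% of all and in 2.71% of those with a Foxc2 summit. When it could begin within 10 bases of the annotated start, it was found in 56.2% of member windows, 31.1% of all and 30.4% of those with a Foxc2 summit. TATAAA was found in 9.59% of member windows, 12.6% of all and 3.28% of those with a Foxc2 summit. For CCAAT the shares were 30.1, 38.2 and 30.2%. Matches are letters in a window, not bound sites.

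**Figure D2:**
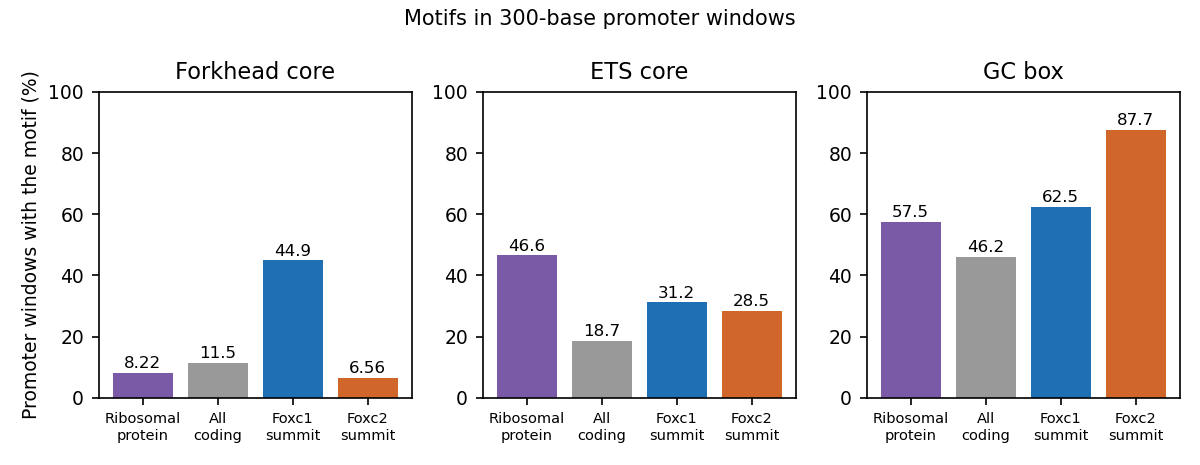
Share of 300-base promoter windows (percent) that hold a forkhead, an ETS or a GC box core on either strand, for 73 ribosomal protein windows, 21263 windows of all protein-coding genes, and those with a Foxc1 (176) or Foxc2 (701) summit inside. The forkhead core stands in 44.9% of windows with a Foxc1 summit, 8.22% of ribosomal protein windows and 11.5% of all windows. The GC box stands in 87.7% of windows with a Foxc2 summit.

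Foxc2 summits became more frequent with the GC content of the window. From the lowest to the highest quartile of GC content, 0.967, 2.74, 7.84 and 21.4% of all windows had a Foxc2 summit within 1 kb of the start, and 0.785, 2.01, 3.43 and 3.91% a Foxc1 summit. Member windows lay mostly in the 2 middle quartiles, with 4, 28, 33 and 8 windows from lowest to highest. Member windows with a Foxc2 summit numbered 0, 3, 3 and 0, or 0, 10.7, 9.09 and 0% of the member windows of each quartile. None of the 8 windows of the highest quartile (GC of 65.0% or more) had one. These counts are too small to set against the 0.967, 2.74, 7.84 and 21.4% of all windows. The part that GC content has in the members' share was not tested.

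Among other lists of broadly expressed genes, translation factors had the highest share of Foxc2 summits. Of 35 translation factor genes, 12 had a gene-end summit of Foxc2 (34.3%, exact Clopper-Pearson 95% interval 19.1 to 52.2%) and 4 of Foxc1 (11.4%, 3.2 to 26.7%). The list holds genes of initiation and elongation factors, which work with the ribosome, and Pabpc1, the gene of a poly(A)-binding protein. For Foxc2 the share was 7.47% in all genes and 7.41% in the ribosomal proteins (2.77 to 15.4%). No test of the difference was made. The intervals cover counting error only, and the lists were chosen with earlier results of these data known, so setting them side by side decides nothing. The highest folds in the translation factor list were those of Pabpc1 (4.80), Eif1 (4.64) and Eif5b (4.17) for Foxc2, and of Eef1b2 (12.66) for Foxc1. Median GC content of their promoter windows was 62.0%, and 57.7% for the ribosomal proteins. Of 31 proteasome genes, 0 had a Foxc2 summit (a share of up to 9.68% is allowed) and 1, Psmb1, a Foxc1 summit. Of 40 ribosome biogenesis genes, 4 and 3 had one, with Wdr12 holding both. Of 78 mitochondrial ribosomal protein genes, Foxc1 marked 6 (7.69%, against 2.93% of all genes) and Foxc2 marked 6 (7.69%, against 7.47%). The interval of each share, 2.88 to 16.0%, includes the share of all genes. Mrpl17, Mrpl44 and Mrps27 had summits of both antibodies (3.85%, interval 0.8 to 10.8%, against 0.882% of all genes). For the cytosolic genes' 0 of 81, the limit from 3 genes is 3.70% and the exact interval reaches 4.45%. The share of 3.85% lies between these limits, so no difference between the lists is read from it. Of 20 genes that regulate ribosomal proteins or signal to and from them, 4 had a Foxc2 and 3 a Foxc1 summit, among them Max (fold 15.88 for Foxc1) and Sp1 (5.85 for Foxc2). With a minus log10 q of 5 or more, 4 of the 35 were left for Foxc2 (11.4%, against 3.11% of all genes). With peaks of fold 5 or more 0 were left, where 0.726% of all genes had one, a share not detectable with 35 genes.

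**Figure D3:**
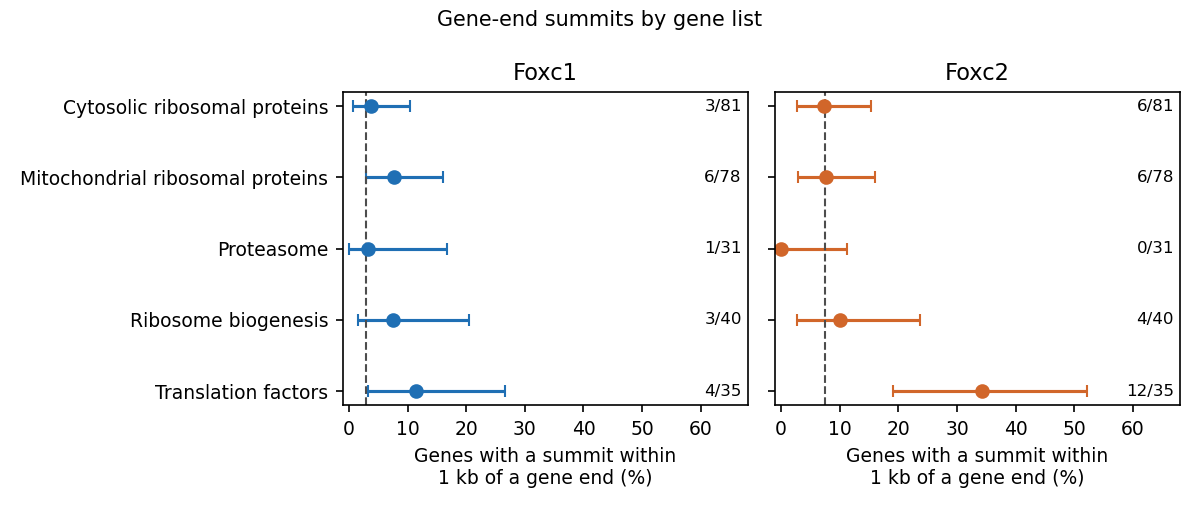
Share of genes (percent, horizontal axis) with a Foxc1 (left) or Foxc2 (right) summit within 1 kb of a gene end, by gene list; points are shares, bars exact Clopper-Pearson 95% intervals, fractions the counts, and dashed lines the share of all protein-coding genes. Cytosolic ribosomal proteins lie near the dashed lines (3/81 and 6/81), and translation factors reach 12/35 for Foxc2.

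Some genes encode ribosomal proteins or ribosome-bound proteins under other names. Fau, whose product is cut into a ubiquitin-like part and a ribosomal protein, had no gene-end summit, and neither did Rack1, a scaffold on the small subunit. The paralog Rpl7l1, which the symbol rule leaves out, had a Foxc1 peak of fold 5.38 with its summit 0.586 kb from a gene end. Rpl22l1 and Rpl36al, paralogs also left out, had no summit of either antibody in the gene or within 50 kb. The nearest summit to Fau was a Foxc2 summit at 1.96 kb. The paralogs Rpl3l, Rpl10l, Rpl39l and Rps27l, which are members by their symbols, had no gene-end summit either. Rpl3l had 2 peaks of each antibody within 50 kb, and the nearest summits to Rpl10l, which replaces Rpl10 in male germ cells, lay 1533 kb (Foxc1) and 3012 kb (Foxc2) away. Of 317 annotated ribosomal protein pseudogenes (symbols ending in -ps and a number), 1 had (Rps10-ps1, named after its value was seen) a Foxc1 summit in or within 1 kb of it and 0 a Foxc2 summit, against 0.431 and 0.211% of all 10429 pseudogenes. Of the members, 29 hold snoRNA genes in their spans, and of these 1 had a gene-end summit of Foxc1 and 1 of Foxc2 (2.93 and 7.47% of all genes), numbers too small to set against those shares.

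Counted more widely, with a summit in the span or within 50 kb, 19 of 81 members had a Foxc1 peak (23.5%, background 29.3%) and 25 a Foxc2 peak (30.9%, background 23.2%). The ratios to all genes were 0.802 and 1.33, and the intervals of the members' shares (14.8 to 34.2% and 21.1 to 42.1%) include both backgrounds. In 11 members both antibodies had one (13.6%, background 12.5%), 33 had at least 1 (40.7%, background 39.9%), and 48 members had neither, among them Rpl11, Rpl13a and Rpsa. Member genes are short, with a median span of 3175 bp against 17169 bp, and have a median of 4 other coding genes in the window against 3. The part of gene length and gene density in these counts was not tested. The median distance from a gene end to the nearest summit was 116 kb for Foxc1 (138 kb over all genes) and 133 kb for Foxc2 (226 kb).

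**Figure D4:**
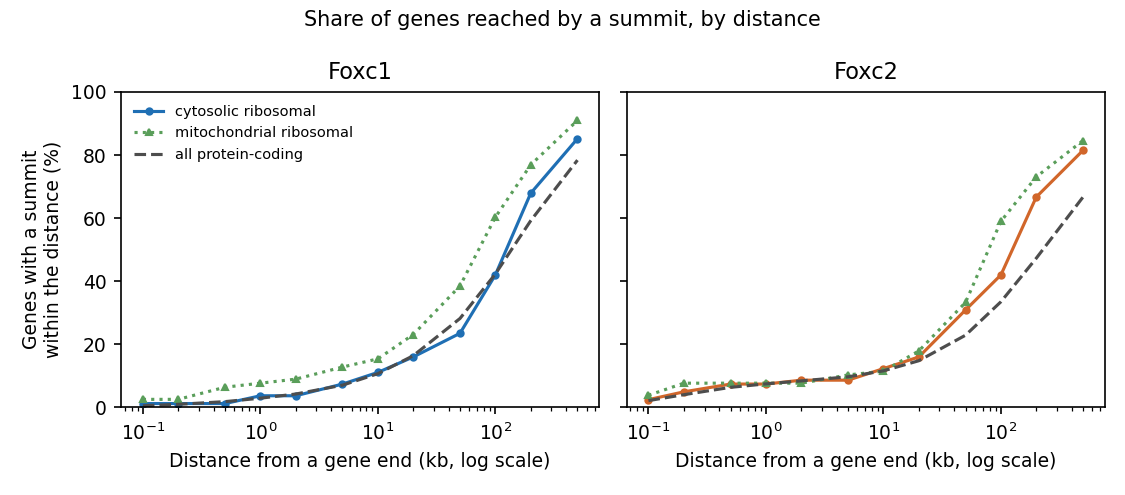
Percent of genes (vertical axis) with a summit within a given distance of a gene end (horizontal axis, kb, log scale), for cytosolic and mitochondrial ribosomal protein genes and all protein-coding genes. Up to 20 kb the cytosolic set follows all genes for both antibodies (16.0% at 20 kb for each, against 16.4 and 14.8%); at 200 kb the values are 67.9 against 59.2% for Foxc1 and 66.7 against 47.3% for Foxc2.

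Most peaks in these windows lay closer to another gene. Of the 27 distinct Foxc1 peaks, 6 had a ribosomal protein gene as the coding gene of nearest end, and of the 35 Foxc2 peaks, 6 did. Member windows hold a median of 4 other coding genes, and the like share for windows of other genes was not computed. Beyond 1 kb from a member there were 23 Foxc1 peaks, of which 5 lay within 1 kb of another coding gene's end, and 29 Foxc2 peaks, of which 20 did. Over the whole lists, 565 of 5207 Foxc1 and 1507 of 2878 Foxc2 peaks lay within 1 kb of a coding gene's end. The highest Foxc1 peak, of fold 29.50, was 25.2 kb from Rplp2 and 1.36 kb from Tspan4, a tetraspanin gene. A Foxc2 peak of fold 8.29, the highest Foxc2 peak in any member's window, overlapped it. The next Foxc1 folds were 19.78 at 45 kb from Rps3 (nearest to Arrb1), 15.19 at 9.64 kb from Rpl21 (nearest to Rasl11a), 12.78 at 36 kb from Rps21 (nearest to Lama5, a laminin chain of the glomerular basement membrane) and 11.87 near Rpl17 (nearest to Dym). Rpl15 had one of 9.81 at 29.1 kb, 0.432 kb from an end of Nr1d2. For Foxc2, Rpl23 had a peak of fold 7.17 at 31.5 kb, nearest to Lasp1, and Rpl21 had 4 peaks of up to 4.99, each nearest to Rasl11a or Usp12. Smaller Foxc2 peaks were those of fold 4.81 at 20.0 kb from Rps16, 0.016 kb from an end of Plekhg2 and of 4.64 at 44.4 kb from Rps18, nearest to H2-K1. The Foxc1 peaks at Rps13 (7.28) and Rps25 (6.24), the members nearest outside 1 kb, were nearest to Pik3c2a and Trappc4. The peaks shared by both antibodies in member windows were 5 of the 27 Foxc1 and 5 of the 35 Foxc2 peaks. They lay at Rplp2, Rps3, Rpl21, Rpl15 and Rpl17, and each was nearest to a gene that is no member. Among all peaks, 8.2% of Foxc1 and 14.8% of Foxc2 peaks were overlapped by the other list, and no test of the difference was made.

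Among members known from disease or used as references, Rps19, Rpl5, Rpl11, Rpl13a, Rpsa and Rplp1 had no peak at their ends. At least 1 antibody had a gene-end summit in 11.1% of members and 9.52% of all genes, so lacking one sets no gene apart. Rps19, mutated in Diamond-Blackfan anaemia, had a Foxc2 peak of fold 4.47 at 34.4 kb and a nearest Foxc1 summit at 397 kb. Rpl5, which with Rpl11 carries ribosomal stress signals to Mdm2, had a Foxc1 peak 17.5 kb away (fold 5.38), and its nearest Foxc2 summit was 78.3 kb away. The nearest summits to Rpl11 were at 87.2 kb (Foxc1) and 62.1 kb (Foxc2), those to Rpl13a at 108 kb for each antibody, and those to Rpsa at 233 and 144 kb. Rplp1, a partner of Rplp0 in the stalk, had a Foxc2 peak of fold 3.84 at 32.2 kb, nearest to Kif23, and no Foxc1 peak within 50 kb. Of the 3 stalk genes, Rplp0 had a peak at its end and Rplp1 and Rplp2 had none, too few genes to set against the share of all genes. Rps2 and Rpl3l are neighbours, and 2 Foxc2 peaks and 1 Foxc1 peak counted for both. The 50 kb limit fell between Rps6 (41.8 kb) and Rps27 (50.8 kb) for Foxc1, and between Rpl26 (48.5 kb) and Rps27 (52.0 kb) for Foxc2.

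**Figure D5:**
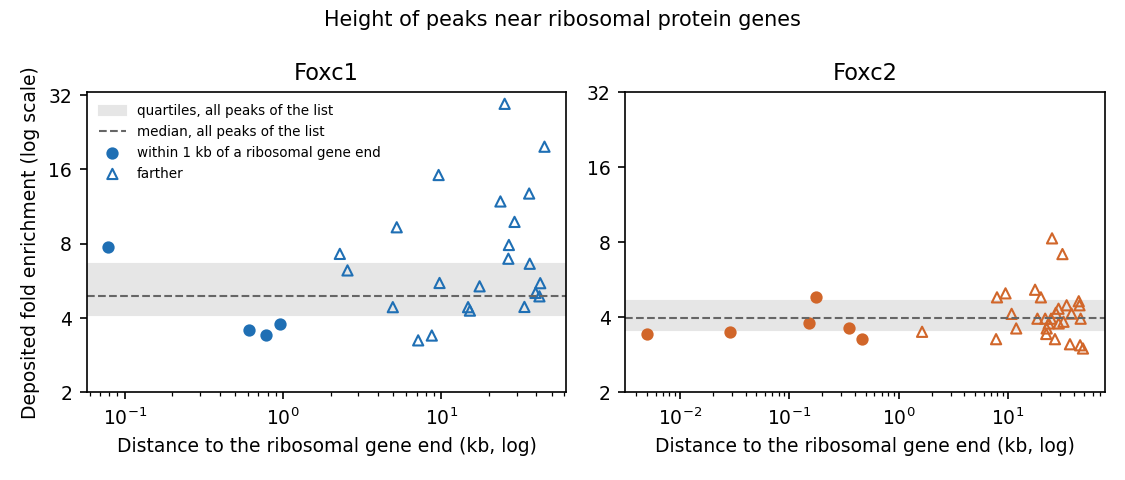
Deposited fold enrichment (vertical axis, log scale) of each distinct peak within reach of a ribosomal protein gene against its distance to the gene end (kb, log scale); filled points lie within 1 kb, grey bands are the quartiles of all peaks of that list and dashed lines its median (4.90 and 3.97). The highest peaks, 29.50 for Foxc1 and 8.29 for Foxc2, lie 25 kb from Rplp2, while the gene-end peaks reach 7.76 and 4.81; folds are not comparable between the panels.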

How the data were processed

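Per the submitters' processing notes, reads were aligned with Bowtie2 to mm10 and peaks called with MACS2; the sources used here give no versions, settings, control or pooling. Each deposited peak list gives a fold over local background (a ratio), a −log10 p-value, a −log10 q-value (1.33 or more in both lists) and a summit; the deposited score is 10 times the −log10 q-value and was not used. Folds are the authors' and were not compared between lists. Genes, starts and promoter sequences came from RefSeq GRCm38.p6. For each list, summits were counted within 1 kb of either end of a gene's span, in the span or within 50 kb of it, and within 1 kb of annotated starts; peaks overlapped from 1 bp. Shares have exact Clopper-Pearson 95% intervals; a count of 0 was given the share of 3 genes as its limit. Counting was tested on simulated data. Genes named were those with summits of both lists at a gene end, up to 10 members by highest gene-end fold and up to 8 by highest fold beyond 1 kb per list, the 2 members on each side of the 1 kb limit, a fixed set (Rps6, Rplp0, Rplp1, Rplp2, Rpsa, Rps19, Rpl5, Rpl11, Rpl13a, restricted paralogs), and up to 3 per comparison list. Some results that this rule would name are not reported here. Members and lists were chosen with earlier results of these data known. Alternatives were stricter q-values and folds, equal numbers of peaks, other distances, and genes sharing no end region. Python 3.11.15, pandas 2.3.3, numpy 2.4.6 and scipy 1.17.1 were used.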

Additional observations from a re-analysis of the deposited data

How the results depend on the processing

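Of 107 values under alternative settings, 84 stayed within the limits set for a change and 23 moved. With a minus log10 q of 5 or more, the median fold of gene-end peaks was 5.78 for Foxc1 and 4.81 for Foxc2, and Foxc2 counts were 1 member at a gene end (3.11% of all genes, ratio 0.397), 1 at a start and 10 within 50 kb. With a fold of 5 or more, Foxc1 kept 1 member at a gene end and 1 at a start (median fold 7.76, 79 bases from the start, from a median of 694 bases), and Foxc2 kept 0 at a gene end (ratio 0), 0 at a start and 2 within 50 kb (ratio 0.634); no Foxc2 median could be formed. With equal numbers of peaks, and likewise within 500 bp, Foxc1 had 1 member at a gene end and 1 at a start. Within 10 kb there were 9 (Foxc1) and 10 (Foxc2) members with a summit (ratios to all genes 0.731 and 0.974), and within 100 kb 34 and 34 (ratios 0.986 and 1.25), so the counts moved with those of all genes. The translation factor alternatives, chosen after seeing the data, gave 4 and 0 genes for Foxc2 at the q and fold limits. The number of members with summits of both antibodies at a gene end was 0 in each alternative run. No paired analysis was possible because each antibody had 1 library and the result comes from no test. Without read counts, the limit that depth sets on low peaks is unknown.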
